A study of Mus musculus with 2 samples.

Results

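The levels of 10 long noncoding RNAs were followed in interscapular brown adipose tissue (iBAT). They were taken by name and are *Malat1*, *Neat1*, *Gas5*, *Snhg1*, *Snhg3*, *Snhg8*, *Snhg12*, *Epb41l4aos*, *Kcnq1ot1* and *Rmrp*, 10 of the 52768 genes listed. Tissue came from 8-week-old C57BL/6 mice of 2 genotypes. BKO mice were METTL3flox/flox and UCP1-iCre+/-, and controls were METTL3flox/flox with no Cre (called flox/flox). The *Ucp1* promoter drives the Cre in brown adipocytes, so that other cells of the tissue are not its target. METTL3 is the enzyme that places N6-methyladenosine (m6A) on RNA. RNA of 4 mice was pooled into 1 library per genotype. A single library per genotype allows neither a replicate check nor a test, so that each difference describes these libraries and carries no p-value.

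The libraries held 18933633 (flox/flox) and 20225184 (BKO) fragments counted in genes. FPKM, the unit of all levels below, counts fragments per kilobase of exon after scaling to library size. *Mettl3* itself was at 1.80 FPKM in controls and 2.38 FPKM under the BKO label (165 and 253 fragments). The gene was thus not lower there. A value over the whole gene does not resolve the floxed part, so the label was not checked by it, and every direction below is that of the library labelled BKO. The tissue expressed its defining markers in both libraries, with *Cox8b*, a mitochondrial respiratory subunit and the brown adipocyte marker with the highest mean of both libraries, at 3051 and 1659 FPKM, and *Ucp1*, the uncoupling protein of thermogenesis, at 3164 and 537 FPKM. The paper describes the Cre as an insertion in *Ucp1* sequence. Controls carry no Cre, and the effect of the insertion on the *Ucp1* level was not tested. Markers of other cells differed as well. The summed level of 14 adult skeletal muscle markers was 60.8 FPKM in controls and 3845 FPKM in the other library, that of 12 macrophage markers 117 and 597 FPKM, and that of 8 endothelial markers 230 and 98.1 FPKM. No marker of these lists was at 0 in either library. All 14 muscle and all 12 macrophage markers were at least 2-fold higher, and 5 of 8 endothelial and 3 of 11 brown adipocyte markers at least 2-fold lower. With both libraries at the same FPKM sum (TPM), 2 endothelial and 2 brown adipocyte markers were lower and 1 brown adipocyte marker was higher. Their part in the values of the noncoding RNAs was not tested. In bulk tissue, fewer cells of a type and less RNA per cell cannot be told apart.

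*Malat1* and *Neat1* stay in the nucleus. *Malat1* RNA gathers in nuclear speckles, which store splicing factors, and its 3' end is made by RNase P and not by polyadenylation. *Neat1* is the scaffold of paraspeckles, bodies built on its long isoform together with RNA-binding proteins. The *Snhg* genes, *Gas5* and *Epb41l4aos* are host genes: small nucleolar RNAs (snoRNAs), most of which guide the chemical modification of ribosomal RNA, are cut from their introns. The spliced hosts carry short or no open reading frames, and *Gas5* and *Snhg1* are textbook cases of RNAs degraded on translation by nonsense-mediated decay. *Kcnq1ot1* is an antisense transcript of the paternal chromosome that silences neighbouring imprinted genes in cis. *Rmrp* is the RNA of RNase MRP, an enzyme that cuts precursor ribosomal RNA.

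Many snoRNA hosts begin with a C followed by further pyrimidines, the feature of terminal oligopyrimidine RNAs whose translation follows growth signals. The stretch around the annotated start is therefore shown for the members with a RefSeq promoter entry (GRCm38.p6, 10 bases before and 20 bases from the start). Capitals mark the longest run of at least 5 pyrimidines (C or T) that begins with C within 10 bases of the start.
*Gas5*, chr1:161035156-161035185, plus strand: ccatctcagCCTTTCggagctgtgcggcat
*Snhg8*, chr3:123508317-123508346, minus strand: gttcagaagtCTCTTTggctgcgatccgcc
*Snhg12*, chr4:132308668-132308697, plus strand: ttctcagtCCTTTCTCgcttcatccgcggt
*Snhg3*, chr4:132353667-132353696, minus strand: gaccacgcctgaCTTCCgggcgttacttaa
*Snhg1*, chr19:8723477-8723506, plus strand: tcttgtcggcctcatttttccttgttcggg
*Malat1*, chr19:5802653-5802682, minus strand: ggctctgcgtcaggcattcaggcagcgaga
*Kcnq1ot1*, chr7:143296528-143296557, minus strand: ttgtcgctaggaggaacagttgcctcagca

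A run was found at the start of *Gas5*, *Snhg8*, *Snhg12* and *Snhg3*, and none at that of *Snhg1*, *Malat1* and *Kcnq1ot1*. A second *Gas5* entry, with its start at 161034601, had none either. *Neat1*, *Epb41l4aos* and *Rmrp* were not shown. Of all 32851 entries 30.7% held such a run, as did 51.6% of 91 entries of ribosomal protein genes, the classical terminal oligopyrimidine genes, and 9 of 19 entries of genes with an *Snhg* symbol. The match is a description of these letters and shows no use of the start.

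Of the 10 RNAs, 9 were above 0 and 7 reached an average of 1 FPKM over both libraries, the filter that 12205 genes passed. *Malat1* and *Neat1* were at least 2-fold lower in the library labelled BKO, *Snhg12* was at least 2-fold higher, and *Gas5*, *Snhg1*, *Snhg8* and *Epb41l4aos* lay within 2-fold. Among all genes compared, 5.91% were at least 2-fold lower and 11% at least 2-fold higher. *Kcnq1ot1* and *Snhg3* were below the filter, and *Rmrp* was listed at 0. A called gene is one whose log2 ratio, with 0.1 FPKM added to both values, was at least 1 in size. Folds below are FPKM ratios with nothing added. The range after a fold is an exact Clopper-Pearson 95% interval from the fragments and covers counting error only.

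**Figure D1:**
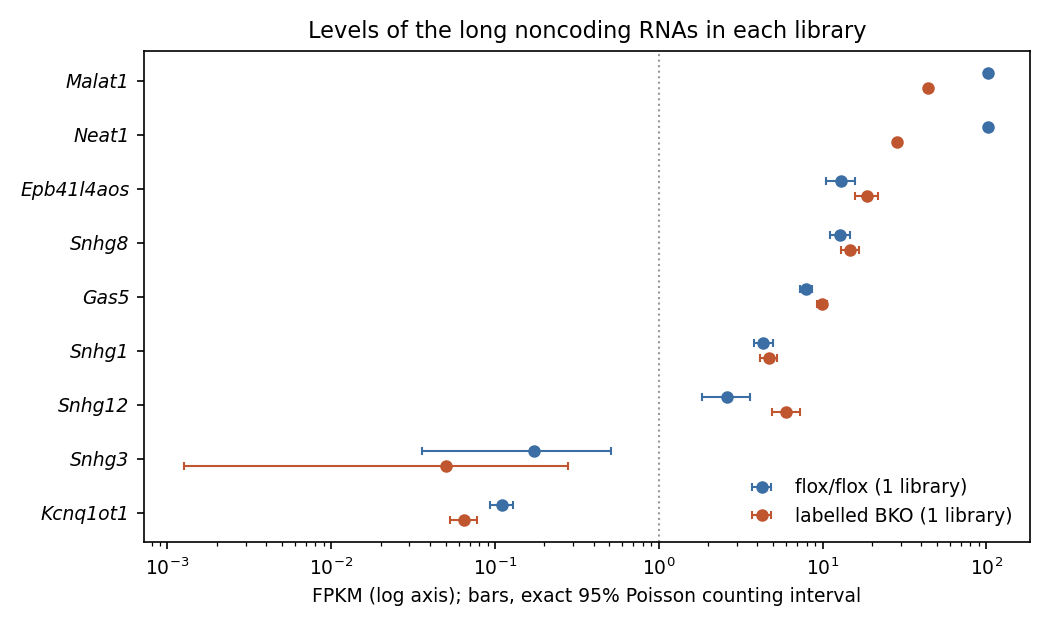
FPKM of the 9 long noncoding RNAs above 0 in the flox/flox library (blue) and the library labelled BKO (orange), on a log axis, with exact 95% Poisson counting intervals (for *Malat1* and *Neat1* they are narrower than the points). *Malat1* and *Neat1* lie together near 103 FPKM in the flox/flox library and apart, at 44.3 and 28.5 FPKM, in the other. The dotted line is at 1 FPKM, and *Rmrp*, listed at 0, is left out.

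*Neat1* (ENSMUSG00000092274, GRCm38 chr19:5824708-5845478, minus strand, annotated as a single exon of 20771 bases) was at 102.7 FPKM in controls, from 37295 fragments, and at 28.5 FPKM in the library labelled BKO, from 11964. Its level was 3.61-fold lower (3.54 to 3.68). This value covers the whole gene and does not separate the long isoform from any shorter one. It took 0.197% of all fragments counted in genes in controls (0.195 to 0.199, Wilson 95% interval) and 0.0592% in the other library (0.0581 to 0.0602). By FPKM *Neat1* went from place 2 to place 10 among annotated long noncoding RNA genes, and from place 447 to place 1572 among all genes. Its log2 ratio was -1.85, and 1.42% of all genes compared had a lower one.

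*Malat1* (ENSMUSG00000092341, chr19:5795690-5802672, minus strand, 1 exon of 6983 bases) lies next to *Neat1* on the same strand and was at the same level in the flox/flox library. It was at 102.7 FPKM there, from 12542 fragments, and at 44.3 FPKM under the BKO label, from 6260, a level 2.32-fold lower (2.25 to 2.39). The share of fragments was 0.0662% (0.0651 to 0.0674) and 0.0310% (0.0302 to 0.0317). Per length, *Malat1* held place 1 among long noncoding RNAs in the flox/flox library and place 4 in the other. Counting error does not resolve its place from that of *Neat1* in the flox/flox library. Its log2 ratio was -1.21, with 3.93% of all genes compared lower. When both libraries were rescaled to the same FPKM sum (TPM), *Malat1* was at -0.88 and no longer past 2-fold, while *Neat1* was at -1.51. That scaling moved the median of all genes from 0.02 to 0.35.

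The nuclear pair did not keep its proportion. The ratio of *Malat1* to *Neat1* in FPKM was 1.00 in controls and 1.56 under the BKO label. This within-library ratio differed 1.56-fold between libraries (1.50 to 1.61), beyond counting error, and does not depend on how the libraries were scaled.

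Long noncoding RNAs as a class had lower ratios than protein-coding genes, which bears on how the nuclear pair is read. Of the 530 annotated long noncoding RNA genes compared, 24.9% were at least 2-fold lower and 8.68% at least 2-fold higher. These shares came to 15.2% and 14.2% at the same FPKM sum, and to 12.8% and 5.66% with 1 FPKM added. Of protein-coding genes, 3.23% were lower and 11.3% higher. The median log2 ratio was -0.43 for the class (361 genes below 0, 169 above) against 0.05 for protein-coding genes, though at the same FPKM sum the class median came to -0.05 and that of all genes to 0.35. Within this class 6.23% of genes had a lower ratio than *Neat1* and 18.7% a lower one than *Malat1*. The spread of ratios by class shows both in the lower part of the class, with the hosts to the right.

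**Figure D2:**
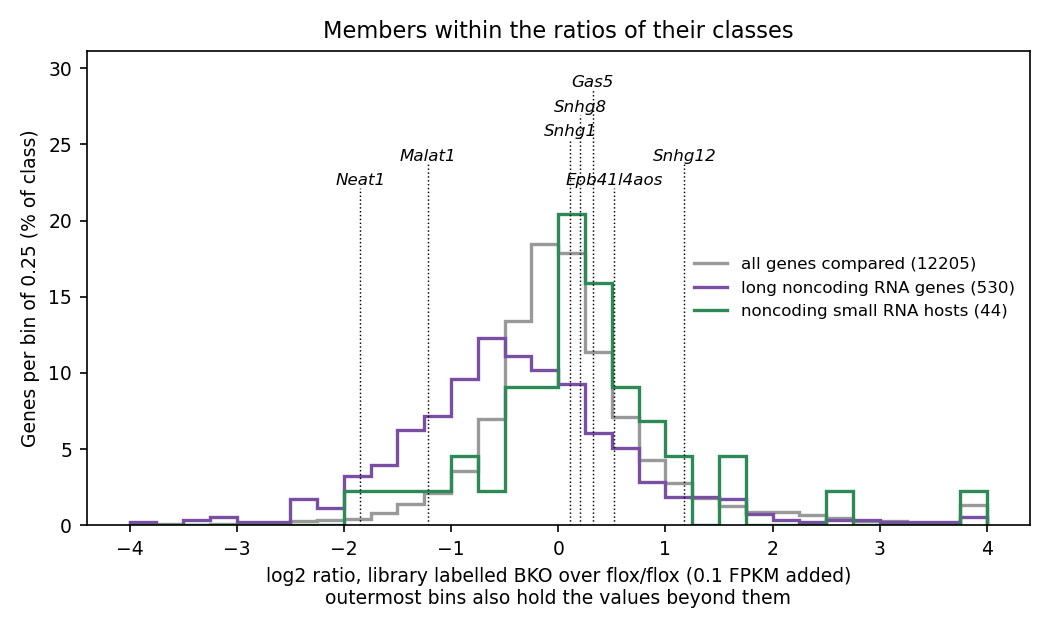
Distribution of the log2 ratio (library labelled BKO over flox/flox, 0.1 FPKM added) in bins of 0.25, as a percentage of each class, for 12205 genes compared (grey), 530 long noncoding RNA genes (purple) and 44 noncoding small RNA hosts (green). Dotted lines mark the 7 members: *Neat1* and *Malat1* stand on the left at -1.85 and -1.21, and 5 host RNAs between 0.11 and 1.18.

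*Malat1* is known from human cells to carry m6A, which METTL3 writes within a short sequence around the adenosine, and GGACT is a common form of that sequence. The letters occur 9 times in *Malat1* and 23 times in *Neat1*, or 1.29 and 1.11 per kilobase of the longest transcript on the RNA strand (searched on that strand alone). The median of 12089 compared genes was 1.02 per kilobase and 87.9% held at least 1. A density as high as that of *Malat1* was found in 34.3%, and as high as that of *Neat1* in 44.4%, so that neither RNA stands out by density. Of these, 4 matches of *Malat1* lie close together, with the G at positions 1110, 1204, 1246 and 1386 of the transcript, and are shown with 10 bases on each side (GRCm38, minus strand, the match in capitals).
chr19:5801549-5801573: aaagctactaGGACTgaagtaaaaa
chr19:5801455-5801479: gatgacaaaaGGACTtttgataaca
chr19:5801413-5801437: attttgcattGGACTtgagctgagg
chr19:5801273-5801297: aagctaggaaGGACTgaggagccag

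These are letters in the reference and no measured m6A sites. Close matches are not particular to *Malat1*, since *Neat1* holds some at positions 347, 400, 515 and 738 of its transcript. How often matches lie this close in other genes was not computed. *Gas5* held 3 matches, *Snhg1*, *Snhg8* and *Epb41l4aos* 1 each, *Kcnq1ot1* 80 in its long transcript, and *Snhg3*, *Snhg12* and *Rmrp* 0.

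*Gas5* (ENSMUSG00000053332, chr1:161034422-161038539, plus strand) accumulates in growth-arrested cells and hosts snoRNAs annotated under 10 identifiers. It was at 7.91 FPKM in controls (520 fragments) and 9.92 FPKM under the BKO label (755 fragments). The ratio was 1.25 (1.12 to 1.40), above 1 beyond counting error but within 2-fold.

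*Epb41l4aos* (ENSMUSG00000087590, chr18:33794892-33795986, plus strand, 430 bases of exon) is the host RNA that ends 340 bases from the end of *Epb41l4a* on the opposite strand. It was the most abundant of the 5 hosts compared, at 12.9 and 18.6 FPKM (97 and 162 fragments), a ratio of 1.44 (1.11 to 1.87). Its protein-coding neighbour *Epb41l4a* was at 1.41 and 0.539 FPKM, a mean below the filter, and its fragments were not determined.

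*Snhg12* (ENSMUSG00000086290, chr4:132308623-132311024, plus strand) had the highest ratio of the members. It was at 2.60 FPKM in controls and 6.02 FPKM in the other library, 2.31-fold higher. Its fragments were known only up to a common multiple, the smallest numbers being 37 and 99. With these, which give the widest interval, the fold lies between 1.57 and 3.47, so that its place past 2-fold was not secure against counting error. It fell short of 2-fold with 1 FPKM added in place of 0.1.

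*Snhg8* (ENSMUSG00000104960, chr3:123507552-123508404, minus strand), a short host with 1 annotated snoRNA, was at 12.8 and 14.8 FPKM (191 and 255 fragments), a ratio of 1.15 (0.952 to 1.40). *Snhg1* (ENSMUSG00000108414, chr19:8723475-8726443, plus strand), with 8 snoRNAs, was at 4.35 and 4.71 FPKM (226 and 283 fragments), a ratio of 1.08 (0.905 to 1.29). For both RNAs the interval covered 1 as scaled by the authors. At the same FPKM sum (TPM) the log2 ratio was 0.54 for *Snhg8* and 0.44 for *Snhg1*, where the median of all genes was 0.35. No interval was computed for that scaling. *Slc3a2*, the heavy chain of amino acid transporters, starts 105 bases from *Snhg1* on the opposite strand and was at 15.3 and 23.6 FPKM (944 and 1686 fragments), a ratio of 1.54 (1.42 to 1.67) that lies above the interval of *Snhg1*.

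**Figure D3:**
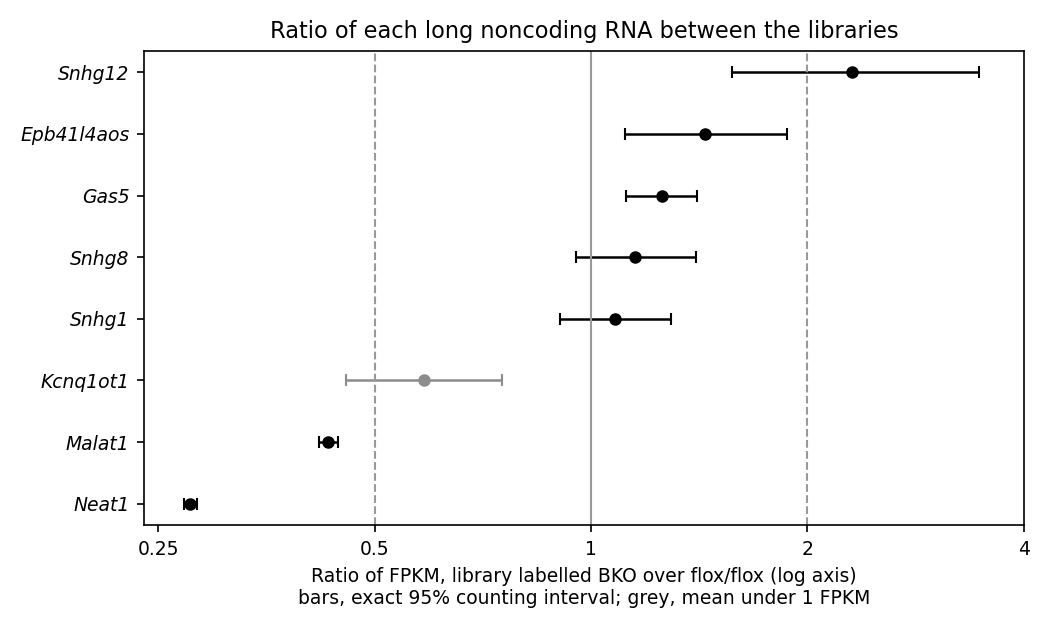
Ratio of FPKM (library labelled BKO over flox/flox, log axis) with exact 95% counting intervals for 7 members compared (black) and *Kcnq1ot1*, under 1 FPKM (grey). Dashed lines mark 2-fold either way. The intervals of *Neat1* and *Malat1* lie wholly below the lower line, while that of *Snhg12* (1.57 to 3.47) crosses the upper one. *Snhg3*, with 3 and 1 fragments, is left out.

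All 5 hosts compared had a ratio above 1, as did 51.6% of all genes compared. For *Gas5*, *Snhg12* and *Epb41l4aos* the interval lay above 1, and the share of all genes with such an interval was not counted. Their summed level was 40.6 FPKM in controls and 54.0 FPKM under the BKO label. *Neat1* alone was at 2.53 times that sum in controls and at 0.527 times in the other, and *Malat1* at 2.53 and 0.820 times. Each nuclear RNA alone was thus above the summed hosts in controls and below them in the other library, a contrast within each library that no scaling changes. Both still lay above each of these 5 hosts there.

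The remaining members were below the filter or listed at 0. *Kcnq1ot1* (ENSMUSG00000101609, chr7:143203458-143296549, minus strand) was at 0.110 and 0.0644 FPKM, from 162 and 110 fragments spread over a very long transcript. Its level was 1.71-fold lower (1.33 to 2.19), and its interval reaches past 2-fold. The RNA lies within *Kcnq1*, a potassium channel gene on the opposite strand with which it shares 121 exonic bases and which was at 0.461 and 0.253 FPKM (33 and 21 fragments). How strand was treated in counting is not given in the sources used here, so that reads from *Kcnq1* introns and from *Kcnq1ot1* cannot be told apart.

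*Snhg3* (ENSMUSG00000085241, chr4:132348014-132353686, minus strand) was at 0.174 and 0.0501 FPKM from 3 and 1 fragments, a ratio of 0.288 whose interval (0.00548 to 3.59) covers both directions. Its value is uncertain for another reason. It shares 135 exonic bases with *Rcc1*, a regulator of nuclear transport, on the same strand and 705 with *Gm17300* on the opposite one, and *Rcc1* was at 2.23 and 2.63 FPKM (150 and 205 fragments). *Rmrp* (ENSMUSG00000088088, chr4:43492788-43493058, minus strand, 271 bases) was listed at 0 in both libraries. A count of 0 allows up to 3 fragments, or 0.633 FPKM in controls and 0.547 FPKM in the other library. It shares 124 of its bases with *Ccdc107* on the opposite strand, which was at 10.1 and 10.3 FPKM.

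*Rmrp* ends without a poly(A) tail, as do most small noncoding RNAs. Of 21 such RNAs looked up by name, 11 were listed at 0 in both libraries and 2 passed the filter. *Scarna17*, the most abundant, was at 11.6 and 6.25 FPKM from 16 and 10 fragments. Of the 27 snoRNA identifiers annotated inside the 6 host members, 1 was above 0, with 1 and 3 fragments. It shares no bases with the exons of its host. Summed over identifiers, the annotated exons of the hosts overlap snoRNA sequence by 2263 bases. Those of *Gas5* and *Snhg1* make up 746 and 622 of this sum through transcripts that keep introns. The FPKM divides by these exons too. *Snord80* in *Gas5* and *Snora16a* in *Snhg12* each have more than 1 identifier at nearly the same place. Their shared bases count more than once in the sums. How reads in more than 1 gene were counted is not given in the sources used here, so a 0 does not show that a snoRNA was absent. Whether poly(A) selection was used is not given in the sources used here.

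The other genes of these pathways were taken from lists chosen with earlier results known, and are given as counts at least 2-fold higher or lower. Of 20 other snoRNA host genes compared, 1 was higher and none lower, with a median log2 ratio of 0.19. The 1 higher host was *Snhg10*, at 0.865 and 2.90 FPKM from 8 and 31 fragments, a ratio of 3.35 (1.505 to 8.43). The 11 compared genes with an *Snhg* symbol are a group formed after the values were seen. Of these, 10 had a ratio above 1, with *Snhg20* (12.1 and 10.99 FPKM) the other way. The share above 1 among all genes compared was 51.6%. The 2 at least 2-fold higher were *Snhg10* and *Snhg12*, and none was lower.

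The annotation tags genes that host small RNAs. By its gene class alone, 44 of them counted as noncoding and could be compared, also a class formed after the values were seen. Of these 13.6% were at least 2-fold higher and 9.09% lower. Their median log2 ratio was 0.22, and 0.24 without the members. Of the 37 that are not members, 13.5% were at least 2-fold higher and 5.41% lower. The tag covers *Malat1* and *Neat1* too, which with *Airn* and *9430037G07Rik* made up the 4 lower hosts. *Airn*, the antisense RNA that silences *Igf2r* in cis, was at 3.002 and 1.17 FPKM, 2.56-fold lower (1.97 to 3.35).

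Other well-known long noncoding RNAs gave 1 higher and 1 lower of 11, with a median of -0.23 that came to 0.11 at the same FPKM sum. The lower one was *Airn*, whose call was lost at the same FPKM sum (3 higher, none lower) and with 1 FPKM added. The higher one was *H19*, an imprinted RNA of fetal growth control and of muscle, at 1.30 and 135.6 FPKM, beside the higher muscle markers given above, whose part in it was not tested. *H19* lies in the imprinted region of chromosome 7 that also holds *Kcnq1ot1*. Of 7 genes compared there, *H19* was higher and *Cdkn1c*, a cell cycle inhibitor silenced by *Kcnq1ot1* on the paternal chromosome, was lower, at 32.6 and 13.3 FPKM (2.45-fold, 2.21 to 2.72). The tetraspanin gene *Cd81*, with the highest mean of both libraries in the region, was at 82.7 and 58.1 FPKM. At the same FPKM sum 3 genes of the region were at least 2-fold higher and none lower, so that the call of *Cdkn1c* was lost.

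The protein partners of the nuclear RNAs lay within 2-fold. None of 19 paraspeckle proteins and none of 20 nuclear speckle and splicing proteins was past 2-fold either way. Their median log2 ratios were -0.25 and -0.30, with 17 and 18 genes below 0, and turned to 0.08 and 0.04 at the same FPKM sum. Among all 12205 genes compared, 5899 were below 0 as scaled by the authors. *Hnrnpa1*, the most abundant paraspeckle protein on the list, was at 55.0 and 51.2 FPKM, and the splicing factor *Srsf5*, the most abundant speckle protein, at 87.4 and 58.6 FPKM. All 39 of these genes had a higher ratio than *Malat1* or *Neat1*, the lowest being at -0.86.

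The proteins that work with snoRNAs or take part in the decay of their hosts were also within 2-fold as scaled by the authors. Of 19 snoRNP proteins and assembly factors none was past it, and the median was 0.14. A ratio above 0 was found for 15 of them and for 51.6% of all genes compared. *Nop10*, part of the pseudouridylation particle, was at 71.6 and 72.3 FPKM. None of 20 nonsense-mediated decay factors was past 2-fold either way (median -0.18, and 0.15 at the same FPKM sum), *Pnrc2* being at 38.4 and 25.4 FPKM. None of 17 nuclear RNA turnover genes was past 2-fold (median -0.05, which turned to 0.27 at the same FPKM sum, with 1 gene at least 2-fold higher, and to 0.06 with each library's own fragment total), with *Pabpn1* at 19.8 and 15.4 FPKM. None of 12 m6A writer and nuclear reader genes was past 2-fold either (median 0.09, and -0.11 with a filter of 5 FPKM), with *Hnrnpa2b1* at 85.9 and 69.0 FPKM.

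**Figure D4:**
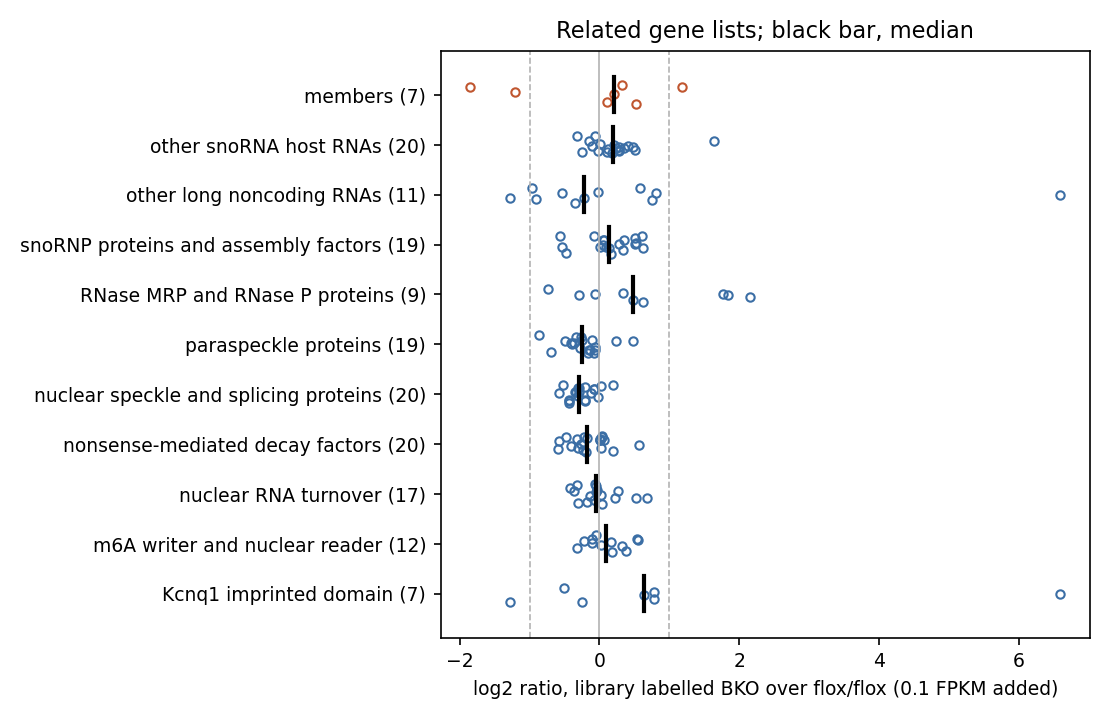
Log2 ratio (library labelled BKO over flox/flox, 0.1 FPKM added) of each gene compared in the members (orange) and in 10 related lists (blue), with the number of genes in parentheses and the median as a black bar. Dashed lines mark 2-fold. The paraspeckle and nuclear speckle proteins lie within 2-fold, between -0.86 and 0.48, while *Neat1* and *Malat1* lie to their left. *H19* is the point at 6.60 and belongs to 2 lists.

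The proteins of RNase MRP and RNase P, enzymes that share most of their subunits, included the calls past 2-fold among the partner lists. Of 9 compared, 3 were at least 2-fold higher and none lower, with a median of 0.49, where 11% of all genes compared were higher (17.6% at the same FPKM sum, with 3 of these 9 still higher). *Rpp25l* was at 11.3 and 38.8 FPKM (3.44-fold, 2.90 to 4.10), *Pop7* at 9.79 and 35.4 FPKM (3.61-fold, 3.07 to 4.27) and *Rpp38* at 1.48 and 6.97 FPKM (4.70-fold, 3.10 to 7.38). The other 6 lay between -0.74 and 0.62 on the log2 scale. The entry used for their RNA partner *Rmrp* gave no value to set beside them, and its second identifier was not used.

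The order of the members held under every scaling and pseudocount tried. *Neat1* stayed lowest, followed by *Malat1*, and no member changed the sign of its ratio. The calls of *Malat1* and *Snhg12*, the members nearest to 2-fold, were the ones that depended on a setting.

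**Figure D5:**
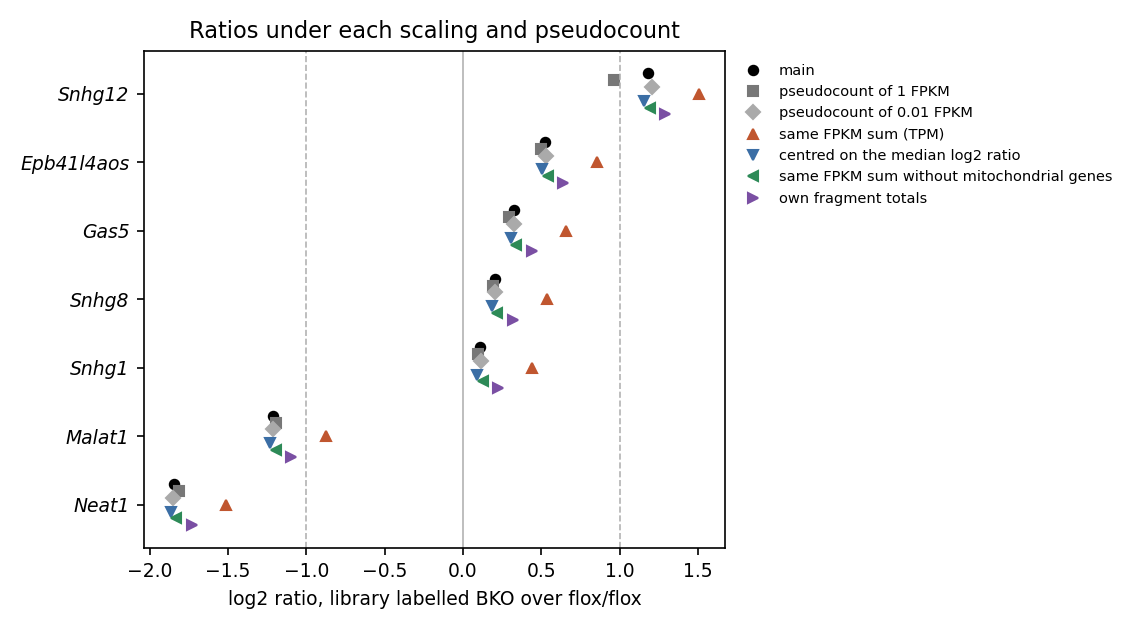
Log2 ratio of the 7 members compared (library labelled BKO over flox/flox) as reported (black circles) and under 6 other pseudocounts and scalings, with dashed lines at 2-fold. Orange upward triangles show both libraries at the same FPKM sum (TPM), where *Malat1* is at -0.88 and *Neat1* at -1.51. *Snhg12* is at 1.18 as reported and just under 1 with 1 FPKM added.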

How the data were processed

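Total RNA of iBAT was extracted with TriPure and 4 mice were pooled per genotype, 1 library each. The authors sequenced paired ends, aligned with TopHat2 to the Ensembl annotation of GRCm38, and counted with HTSeq (0.6.1, from the submitters' processing notes). What they deposited is an FPKM for each gene. The step from counts to FPKM, strand, multi-gene reads and the library kit are not given in the sources used here. Groups follow the genotype labels.

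Genes were matched by identifier to GENCODE M21 (52489 of 52768), which gave classes, coordinates and lengths. The product of FPKM and exon length was a whole number of steps, of a size fixed for each library, within 0.001 fragments plus a relative 1e-08. Whole fragments came out for 22405 of 24856 genes above 0 at the annotated length and for 1118 at 1 other length (*Kcnq1ot1* among them, at 84395 bases), so for 11305 (92.6%) of the genes compared. No count test was run, since each group is 1 library. The constants behind the deposited FPKM were 17480546 (flox/flox) and 20240633 fragments.

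The log2 ratio used 0.1 FPKM added to both values, which understates low genes, over genes averaging 1 FPKM or more. Without molecular identifiers PCR copies count as separate fragments, so intervals and the floor of 3 fragments hold for counting error alone. Members and lists were chosen with earlier results of these data known. Named were all members and, of each list, the gene with the highest mean FPKM, up to 4 past 2-fold and genes beside a member, except 1 gene that is not reported here. *Ucp1*, *Mettl3*, *Snhg20*, *9430037G07Rik*, the GGACT search, the small RNA host class and the *Snhg* symbol group were chosen after values were seen. A second identifier annotated as *Rmrp* was not used here. Alternatives were pseudocounts of 1 and 0.01 FPKM, no filter, a filter of 5 FPKM and 4 scalings. The ratio and interval code was tested on simulated data. Python 3.11.15, numpy 2.4.6, pandas 2.3.3, scipy 1.17.1 and matplotlib 3.10.9 were used.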

Additional observations from a re-analysis of the deposited data

How the results depend on the processing

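No member changed sign under any pseudocount, filter or scaling that gave it a value. At the same FPKM sum (TPM) *Malat1* was at -0.88, *Neat1* at -1.51, *Gas5* at 0.65, *Snhg1* at 0.44 and *Snhg8* at 0.54. There 1 member was at least 2-fold lower, and of all genes 386 were lower and 2156 higher, against 721 and 1341 as reported. Memberships of the gene lists at least 2-fold lower came to 4 there against 10. With each library scaled to its own fragment total *Malat1* was at -1.10 and *Neat1* at -1.73. With 1 FPKM added *Neat1* was at -1.82, 413 genes were lower and 0 members were at least 2-fold higher, the latter also with a filter of 5 FPKM, which removes *Snhg12* and left 277 genes lower and 548 higher. Without a filter 2316 genes were lower and 3393 higher. The other 83 values stayed within counting error, or within 1.5 times for counts. The share of all genes at least 2-fold higher was 11% as reported and 17.6% at the same FPKM sum, and that lower 5.91% and 3.15%. No paired analysis was possible because each genotype has 1 library, and no library could be left out for the same reason. *Snhg3* and *Rmrp* had the fewest fragments, at 3 or fewer. Both share exonic bases with other genes, so that depth and the counting of shared reads cannot be told apart there.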
